A study of Mus musculus with 8 samples.

Results

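The genes of cholesterol synthesis and of its control by the SREBP transcription factors were followed in whole mouse cerebellum after a calcium pump had been switched on in astrocytes. The set holds 28 genes, listed by name from the pathway with earlier results of these data known: 20 enzymes from the first thiolase step to the last reductases, 7 genes of the SREBP control system, and Stard4, a sterol carrier. All 28 were found in the table of 24060 rows, all 28 had at least 10 counts in at least 4 of the 8 libraries, and all 28 were among the 15186 genes tested. RNA came from 4 bigenic mice, which carry CalExflox, an allele that yields the calcium-exporting pump once recombined, and also Aldh1l1-Cre/ERT2, whose recombinase needs tamoxifen and is driven by an astrocyte promoter. The other group was 4 control mice with CalExflox and no Cre. Both groups received a single intraperitoneal dose of tamoxifen in corn oil, 75 mg/kg from a solution of 25 mg/ml, and the cerebellum was collected 5 days after it. Each library is from its own mouse by the labels, which state neither age nor sex. Since the bigenic mice alone carry Cre, effects of the pump and of Cre cannot be told apart, and in whole tissue fewer cells of a type and less RNA per cell cannot be told apart either.

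Cells build cholesterol from acetyl-CoA by way of mevalonate, farnesyl pyrophosphate, squalene and lanosterol, and the late enzymes turn lanosterol into cholesterol. When sterols run low, the escort protein SCAP carries SREBP from the endoplasmic reticulum to the Golgi, where the proteases encoded by Mbtps1 and Mbtps2 free its active part, and the freed factor raises transcription of the synthesis genes. INSIG proteins hold SCAP back when sterols are plentiful. The brain makes its own cholesterol, since lipoproteins of the blood hardly cross the vessel wall, and in the adult the main producers are glial cells, astrocytes among them. Tamoxifen, which both groups received, is known to bind the sterol isomerase encoded by Ebp.

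SREBP acts on promoters next to NF-Y, which binds CCAAT boxes, and Sp1, which binds GC boxes. RefSeq promoter sequences of build GRCm38.p6, from 250 bases before to 50 after a gene's start, were at hand for 24 of the 28 genes, in 32 entries; Fdps, Fdft1, Sqle and Stard4 had none. The sterol regulatory element was searched as TCACNCCAC, the CCAAT box as CCAAT and the GC box as GGGCGG, each on both strands. Hmgcs1 alone held a match to the sterol element (1 of 32 member entries, against 1.24% of all 32851 entries). A CCAAT box was found in 65.6% of the member entries and in 37.4% of all entries, and a GC box in 78.1% and 35.7%. By gene, a CCAAT box was found for 10 of the 10 members that fell and have an entry, for 4 of the 4 that rose and for 6 of the 10 that did not pass the test. A GC box was found for 9 of 10, 4 of 4 and 8 of 10 of these. A match is a description of these letters only, and no match of one motif overlapped one of another. The 180 bases before the start are shown for Hmgcs1, which holds the sterol element, and, chosen after their values were seen, for Ebp and Lss, the members with the smallest p among those that fell and those that rose. Each is written 5′ to 3′ on the gene's strand, with the matches in capitals.
Hmgcs1 (chr13:119690171-119690350, plus strand): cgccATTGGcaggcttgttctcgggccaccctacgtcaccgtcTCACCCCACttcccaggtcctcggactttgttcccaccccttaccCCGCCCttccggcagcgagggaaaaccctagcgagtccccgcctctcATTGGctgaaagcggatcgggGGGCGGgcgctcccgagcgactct
Ebp (chrX:8193513-8193692, minus strand): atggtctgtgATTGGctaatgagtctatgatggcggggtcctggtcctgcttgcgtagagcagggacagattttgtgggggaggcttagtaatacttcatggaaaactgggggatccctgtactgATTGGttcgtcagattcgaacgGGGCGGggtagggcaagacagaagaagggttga
Lss (chr10:76531425-76531604, plus strand): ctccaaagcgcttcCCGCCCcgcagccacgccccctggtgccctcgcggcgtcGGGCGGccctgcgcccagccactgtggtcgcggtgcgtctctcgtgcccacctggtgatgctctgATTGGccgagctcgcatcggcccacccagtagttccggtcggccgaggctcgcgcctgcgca
Hmgcs1 and Ebp, which fell, and Lss, which rose, all hold CCAAT and GC boxes in this stretch, so that these letters do not tell the 2 directions apart.

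Most of the synthesis enzymes were lower in bigenic cerebellum, while the enzymes Lss and Lbr, which act just before and just after Cyp51, and the SREBP system genes Srebf1 and Insig1 were higher. Of the 28 genes, 13 fell and 4 rose at an adjusted p under 0.05 (edgeR's quasi-likelihood test, Benjamini-Hochberg over all genes tested). Over all genes tested 44.3% were called, 22.9% lower and 21.4% higher. The median log2 fold change was -0.30 over the 28 genes and -0.0041 over all genes. Among the 20 enzymes 12 fell and 2 rose. A change of more than 1.5-fold was called for 6 members that fell and 4 that rose, against 19.5% of all genes in either direction. The bigenic and control values did not overlap for 12 members, 8 lower and 4 higher, against 40.7% of all genes (21.4% lower, 19.4% higher). Without control libraries 2 and 3, 7 of the 20 enzymes fell and 2 rose, against 1775 and 1619 of 15525 genes tested.

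**Figure D1:**
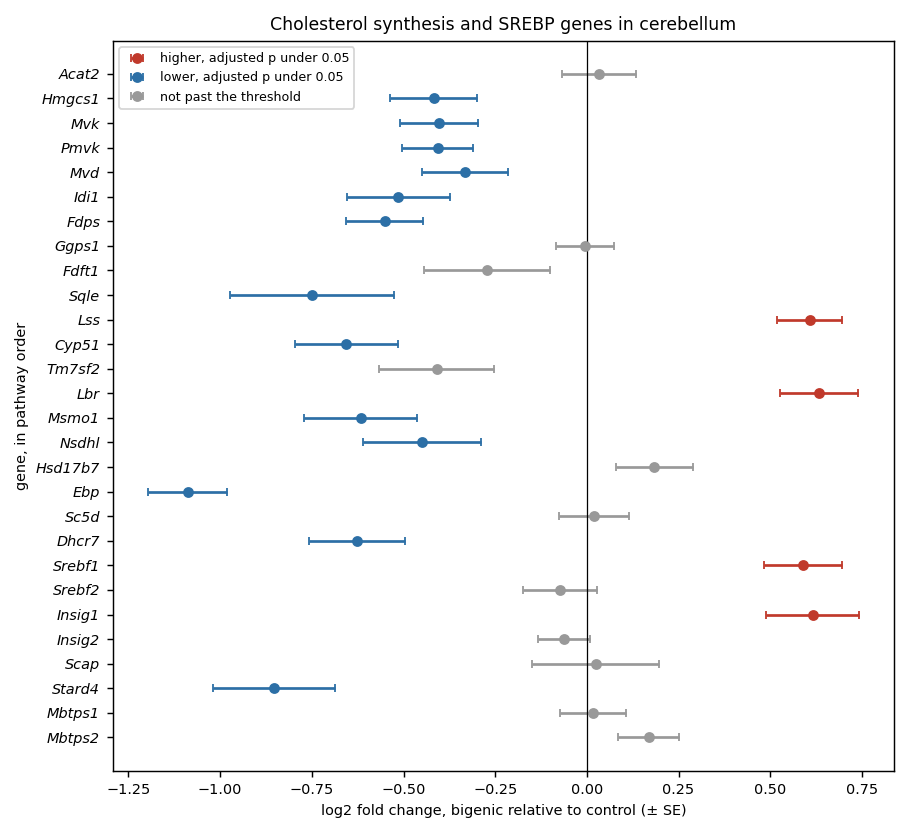
Log2 fold change of each member, bigenic relative to control, with its standard error, in pathway order from Acat2 to the SREBP genes. Blue points (13) fell, red points (4) rose and grey points (11) did not pass the test; Ebp lies farthest to the left, at -1.09.

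Library totals lay between 35208460 and 38293012 counts. Control libraries differed among themselves in choroid plexus RNA. Ttr, the most abundant transcript of the choroid plexus, was at 300.2, 2360, 2961 and 2.77 CPM (counts scaled to library size) in controls 1 to 4 and between 2.25 and 4.62 CPM in the bigenic libraries. Of 10 choroid plexus markers 9 were lower in bigenic tissue, with a summed level of 46.2 to 3186 CPM in controls and 48.6 to 56.8 CPM in bigenic libraries. Kcne2 had no count in control library 4. Without control libraries 2 and 3, 8 of the 13 members that fell were still called (Mvk, Pmvk, Fdps, Sqle, Cyp51, Ebp, Dhcr7 and Stard4) and all 4 that rose, and 3394 genes were called in all. With the level of Ttr as a covariate 8 fell (Hmgcs1, Fdps, Sqle, Cyp51, Msmo1, Ebp, Dhcr7 and Stard4) and 3 rose, Insig1 being no longer called (log2 fold change 0.50, adjusted p = 0.0998), and 2938 genes were called in all. All 17 called members kept their direction in both fits. With Ttr, the members no longer called lower (Mvk, Pmvk, Mvd, Idi1 and Nsdhl) were at -0.49, -0.44, -0.42, -0.55 and -0.53. Without the covariate they were at -0.40, -0.41, -0.33, -0.51 and -0.45, with smaller SEs (for Mvd 0.12 against 0.18). Without control libraries 2 and 3, the lost Hmgcs1, Mvd, Idi1, Msmo1 and Nsdhl were at -0.42, -0.45, -0.51, -0.62 and -0.35. Over the 28 genes the median was -0.43 with Ttr, -0.32 without those libraries and -0.30 in the first fit. Control library 4, with Ttr at the bigenic level, had the highest summed level of the 20 enzymes, 1093 CPM. The sums were 865, 937 and 993 CPM in control libraries 1 to 3 and 779, 749, 875 and 856 CPM in bigenic libraries 1 to 4, so that bigenic library 3 lay above control library 1.

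**Figure D2:**
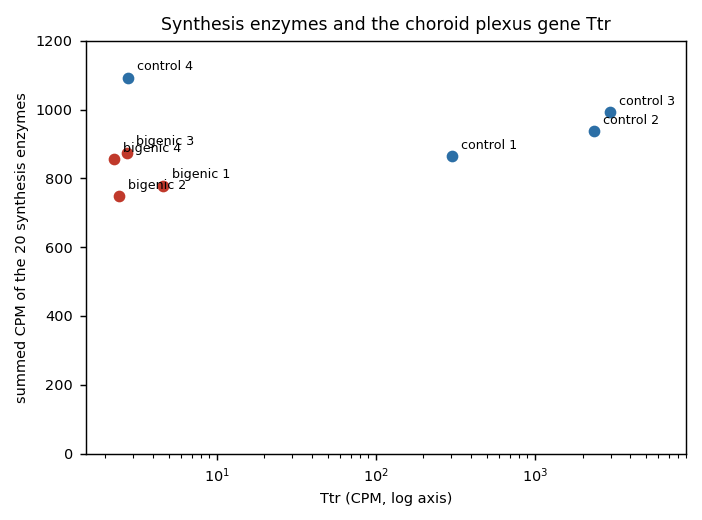
Summed level of the 20 synthesis enzymes (vertical axis, CPM) against the choroid plexus gene Ttr (horizontal log axis, CPM) in each of the 8 libraries, bigenic in red and control in blue. Control library 4, at 2.77 CPM of Ttr, has the highest enzyme sum, 1093 CPM.

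Of the 8 members that act between acetyl-CoA and the prenyl pyrophosphates 6 fell in edgeR's test, against 22.9% of all genes tested. In that test 0 of the 8 rose, also 0 at an unadjusted p under 0.05 and 0 with DESeq2 or with limma on the FPKM, against 21.4% of all genes. Without control libraries 2 and 3, edgeR called 3 of the 8 lower, against 1775 of 15525 genes tested, and 6 were lower at an unadjusted p under 0.05. Hmgcs1, which makes HMG-CoA, was at 117, 121, 148 and 146 CPM in bigenic mice 1 to 4, against 144, 169.5, 186 and 210.4 CPM in control mice 1 to 4. The groups overlapped only through control library 1, which lay below bigenic libraries 3 and 4. The log2 fold change of Hmgcs1 was -0.42 ± 0.12 (SE; adjusted p = 0.0137), and without control libraries 2 and 3 it was again -0.42, no longer called at an adjusted p of 0.0844. An antisense gene, Gm48342, overlaps its exons (chromosome 13, 119690379 to 119708260, plus strand).

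Mevalonate is then phosphorylated and decarboxylated by the products of Mvk, Pmvk and Mvd. Mvk was at 13.5, 12.9, 11.2 and 12.9 CPM in bigenic mice, against 17.03, 17.9, 14.3 and 17.6 CPM in controls. Pmvk was at 30.2, 34.5, 25.1 and 28.6 CPM in bigenic mice, against 39.0, 38.4, 39.3 and 40.4 CPM in controls. For both kinases every bigenic value lay below every control value, and the 4 control values of Pmvk were within 2 CPM of each other. Mvk fell by 0.40 ± 0.11 (SE; adjusted p = 0.00967) and Pmvk by 0.41 ± 0.10 (SE; adjusted p = 0.00549) on the log2 scale. Mvd was at 18.2, 16.3, 13.7 and 17.7 CPM in bigenic mice, against 23.8, 18.1, 19.8 and 21.2 CPM in controls, and its lowest control value was just under its highest bigenic one. Mvd fell by 0.33 ± 0.12 (SE; adjusted p = 0.0358), and this was no longer called in 5 of the 8 fits that left out 1 library (bigenic 2 or 3, or control 1, 3 or 4), where the highest adjusted p was 0.099.

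The isomerase Idi1 and the farnesyl pyrophosphate synthase Fdps came next. Idi1 was at 4.11, 3.17, 4.46 and 4.40 CPM in bigenic mice, against 5.399, 5.64, 5.93 and 6.05 CPM in controls. Fdps was at 15.8, 16.7, 16.4 and 20 CPM in bigenic mice, against 22.6, 24.9, 25.0 and 28.5 CPM in controls. Neither gene overlapped between the groups. Fdps fell 1.47-fold (log2 fold change -0.55 ± 0.11, SE; adjusted p = 0.00157) and Idi1 1.43-fold (-0.51 ± 0.14, SE; adjusted p = 0.0117). The call of Idi1 was lost without control libraries 2 and 3 (adjusted p = 0.0869). Both overlap predicted genes, Gm43738 on the strand of Fdps and Gm48574 opposite to Idi1.

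The ends of this stretch did not pass the test. Acat2, the cytosolic thiolase that condenses acetyl-CoA, lay between 20.8 and 26.3 CPM in bigenic mice, against 20.7 to 25.1 CPM in controls (log2 fold change 0.03 ± 0.10, SE; adjusted p = 0.809). Ggps1, which makes geranylgeranyl pyrophosphate for protein prenylation and so leaves the sterol route, lay between 114 and 141 CPM in bigenic mice, against 119 to 135 CPM in controls (-0.0043 ± 0.08, SE; adjusted p = 0.969). The sign of both values turned with the scaling or the libraries used, and Ggps1 overlaps Arid4b on the opposite strand.

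The 3 enzymes that make squalene and close its rings went different ways. Fdft1, squalene synthase, was at 33.1, 28.4, 44.5 and 43.1 CPM in bigenic mice, against 33.6, 43.3, 46.2 and 56.9 CPM in controls, with overlapping groups (-0.27 ± 0.17, SE; adjusted p = 0.217). Its exons overlap Ctsb on the opposite strand (mean 551.5 CPM in bigenic mice, against 520.3 CPM in controls). Sqle, the epoxidase that is a flux-controlling step, was at 30.5, 54.9, 30.3 and 32.3 CPM in bigenic mice, against 62.1, 47.3, 53.8 and 85.6 CPM in controls. Bigenic library 2 stood within the control range, whereas the other 3 bigenic libraries lay below every control. Sqle fell by 0.75 ± 0.22 (SE; adjusted p = 0.0202), and by 1.01 without bigenic library 2 (adjusted p = 0.00129). The call was lost without bigenic library 1, 3 or 4, at an adjusted p of 0.0601, 0.0834 and 0.0503, and with no filter on low counts (adjusted p = 0.0711).

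Lss, lanosterol synthase, ran against its neighbours. It was at 39.7, 32.8, 37.7 and 41.1 CPM in bigenic mice, against 24.4, 26.4, 23.95 and 24.6 CPM in controls. Every bigenic value was above every control value. Lss rose 1.52-fold (log2 fold change 0.61 ± 0.09, SE; adjusted p = 0.000318). The value stayed between 0.56 and 0.67 when 1 library was left out. The gene on the opposite strand that overlaps its exons, 4930483K19Rik, had a mean of 0.015 CPM in bigenic mice, against 0.0067 CPM in controls (Lss lies on chromosome 10, 76531588 to 76557138, plus strand).

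**Figure D3:**
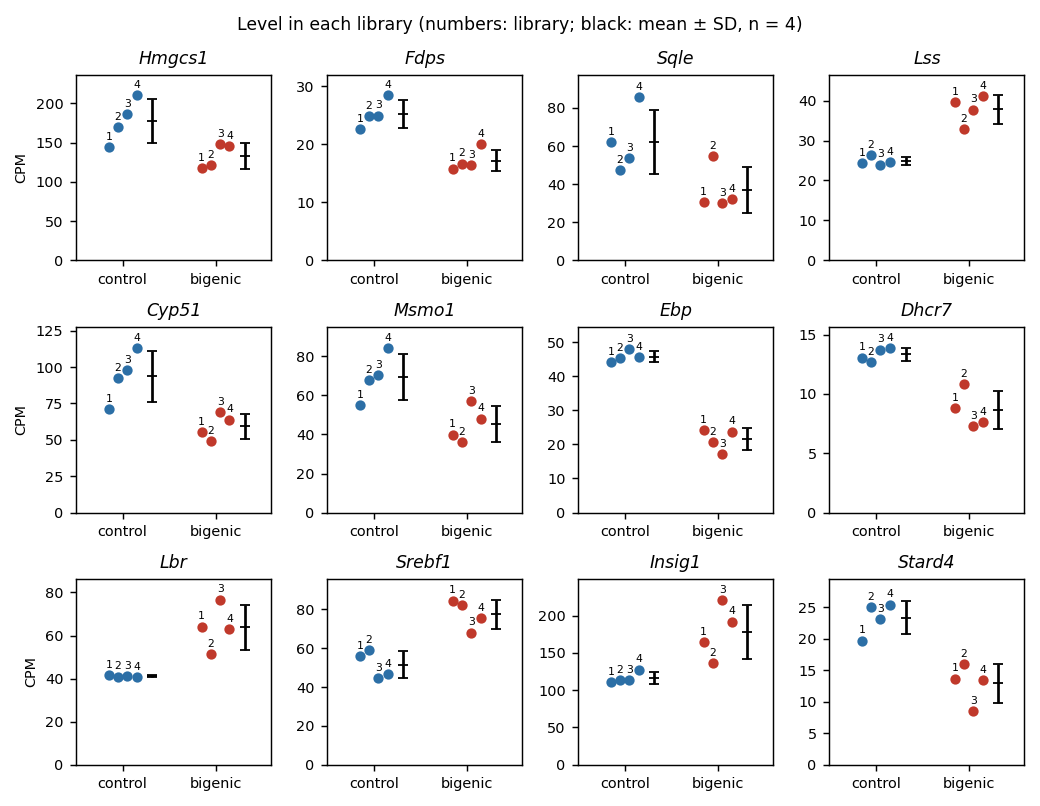
Level of 12 members in each library (CPM, each axis from 0), control in blue and bigenic in red, with library numbers and, in black, mean ± SD (n = 4 per group). Lss, Lbr, Srebf1 and Insig1 are higher in all bigenic libraries, Fdps, Cyp51, Ebp, Dhcr7 and Stard4 are lower in all, and Sqle is at 54.9 CPM in bigenic library 2.

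Between lanosterol and cholesterol 5 of 9 enzymes fell and 1 rose, against 22.9% and 21.4% of all genes tested. Without control libraries 2 and 3, 3 of the 9 fell and 1 rose, against 1775 and 1619 of 15525 genes tested. Cyp51, the demethylase that acts on lanosterol, was at 55.5, 49.3, 68.8 and 63.9 CPM in bigenic mice, against 70.9, 92.2, 98.1 and 113 CPM in controls. The groups were separated by a narrow gap between bigenic library 3 and control library 1. Cyp51 fell 1.58-fold (log2 fold change -0.66 ± 0.14, SE; adjusted p = 0.00325). It overlaps Akap9 on the opposite strand, which was itself lower (-0.31, adjusted p = 0.0102).

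The double bond left by Cyp51 is then removed by the reductases of Tm7sf2 and Lbr, which share this activity. Tm7sf2 was at 8.70, 9.68, 5.60 and 6.98 CPM in bigenic mice, against 10.7, 9.67, 9.92 and 10.9 CPM in controls, where bigenic library 2 reached the lowest control value. Its difference of -0.41 ± 0.16 (SE) missed the threshold at an adjusted p of 0.0521 and passed it in 8 of the 11 alternative fits to all libraries or without control libraries 2 and 3. Tm7sf2 shares exonic sequence with Vps51 on its own strand. Lbr, which also anchors chromatin at the nuclear envelope, was at 64.1, 51.3, 76.6 and 63.0 CPM in bigenic mice, against 41.6, 40.9, 41.3 and 40.8 CPM in controls. The control values of Lbr differed by less than 1 CPM, and every bigenic value lay above them. Lbr rose 1.55-fold (log2 fold change 0.63 ± 0.11, SE; adjusted p = 0.000732). Dnah14 overlaps Lbr on the opposite strand and has no row in the table.

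The demethylation of the ring is completed by the products of Msmo1 and Nsdhl. Msmo1 was at 39.9, 36.0, 56.9 and 48.1 CPM in bigenic mice, against 55.1, 67.8, 70.4 and 84.1 CPM in controls, with bigenic library 3 above control library 1. Nsdhl was at 6.96, 9.60, 8.29 and 9.29 CPM in bigenic mice, against 8.51, 11.2, 13.7 and 13.2 CPM in controls, with control library 1 inside the bigenic range. Msmo1 fell by 0.62 ± 0.15 (SE; adjusted p = 0.00734) and Nsdhl by 0.45 ± 0.16 (SE; adjusted p = 0.0389). The call of Nsdhl was lost in 6 of the 8 fits that left out 1 library (bigenic 1, 3 or 4, or control 2, 3 or 4; highest adjusted p = 0.115), and Msmo1 was at an adjusted p of 0.051 without control libraries 2 and 3. Hsd17b7, which acts at the same stage, lay between 27.5 and 38.4 CPM in bigenic mice, against 27.8 to 31.5 CPM in controls (0.18 ± 0.10, SE; adjusted p = 0.173), and passed the test without bigenic library 2 (0.27, adjusted p = 0.0249).

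Ebp, the sterol isomerase, had the largest change of the 28 genes. It was at 24.3, 20.8, 17.2 and 23.8 CPM in bigenic mice, against 44.1, 45.4, 48.0 and 45.6 CPM in controls. The control values lay within 4 CPM of each other, and every bigenic value was far below them. Ebp fell 2.13-fold (log2 fold change -1.09 ± 0.11, SE; adjusted p = 3.23e-05). Leaving out any 1 library gave values between -1.15 and -1.004. No annotated exon of another gene overlaps it (chromosome X, 8185329 to 8193512, minus strand).

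Sc5d and Dhcr7 act after Ebp. Sc5d, a desaturase, lay between 78.4 and 100.4 CPM in bigenic mice, against 79.4 to 95.6 CPM in controls (0.02 ± 0.09, SE; adjusted p = 0.885), with a sign that turned with the scaling. Dhcr7, whose reductase yields cholesterol or its direct precursor, was at 8.79, 10.9, 7.27 and 7.62 CPM in bigenic mice, against 13.1, 12.7, 13.7 and 13.9 CPM in controls, with no overlap. It fell 1.54-fold (log2 fold change -0.63 ± 0.13, SE; adjusted p = 0.00271).

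**Figure D4:**
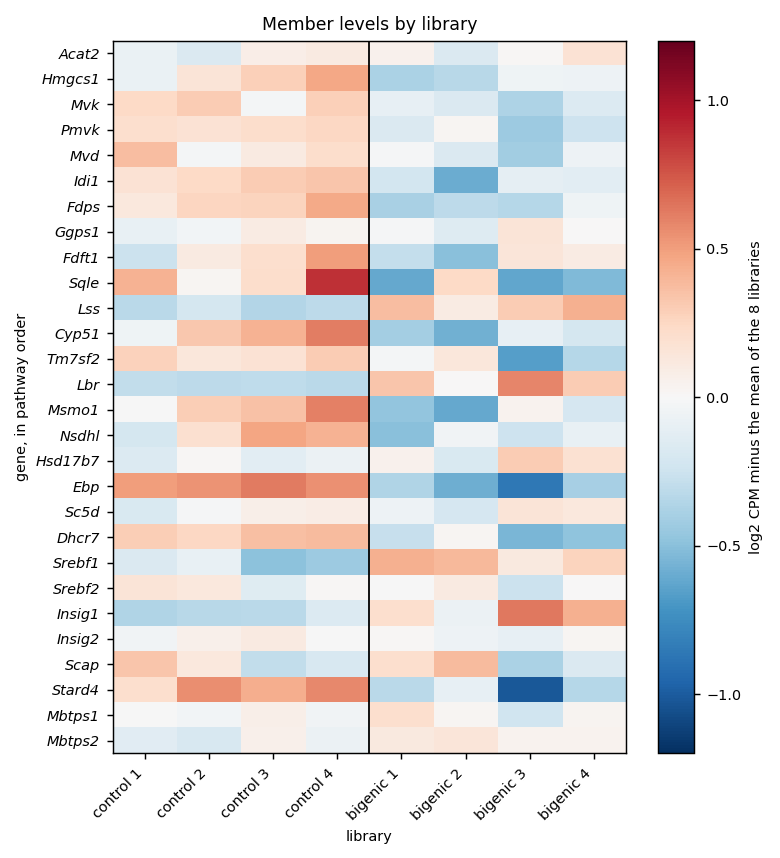
Level of each member in each library as log2 CPM minus the mean of the 8 libraries, red above and blue below, genes in pathway order and control libraries to the left of the line. Most enzyme rows run from red to blue, and the rows of Lss, Lbr, Srebf1 and Insig1 run the other way.

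In the SREBP control system 2 of 7 genes rose in edgeR's test, against 21.4% of all genes tested. In that test 0 of the 7 fell, also 0 at an unadjusted p under 0.05 and 0 with DESeq2 or with limma on the FPKM, against 22.9% of all genes. Srebf1, whose products favour fatty acid genes, was at 84.5, 82.1, 68.0 and 75.4 CPM in bigenic mice, against 55.8, 59.1, 44.7 and 46.5 CPM in controls, with no overlap. It rose 1.504-fold (log2 fold change 0.59 ± 0.11, SE; adjusted p = 0.0011). The counts are per gene, so that the forms of Srebf1 from its alternative first exons were not told apart, and Rai1 overlaps it on the opposite strand (0.37, adjusted p = 0.203). Srebf2, the factor that acts chiefly on the cholesterol genes, was at 32.1, 34.6, 26.8 and 32.2 CPM in bigenic mice, against 35.8, 34.95, 29.0 and 32.5 CPM in controls. The groups of Srebf2 overlapped, and its difference of -0.07 ± 0.10 (SE) was not called (adjusted p = 0.578).

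The INSIG pair differed in the same manner. Insig1, itself a target of SREBP, was at 165, 136.5, 221 and 192 CPM in bigenic mice, against 111, 113, 114 and 128 CPM in controls. Every bigenic value was higher, with bigenic library 2 closest to the controls. Insig1 rose 1.53-fold (log2 fold change 0.62 ± 0.13, SE; adjusted p = 0.00251). No exon of another gene overlaps it. Insig2 was at 53.1, 50.3, 49.1 and 53.2 CPM in bigenic mice, against 51.0, 54.8, 56.6 and 52.2 CPM in controls, within one range (-0.06 ± 0.07, SE; adjusted p = 0.504).

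The escort and the proteases were not called. Scap lay between 50.5 and 85.0 CPM in bigenic mice, against 53.2 to 82.2 CPM in controls (0.02 ± 0.17, SE; adjusted p = 0.92). Mbtps1 lay between 108 and 147 CPM in bigenic mice, against 124 to 134 CPM in controls (0.02 ± 0.09, SE; adjusted p = 0.894). Mbtps2 lay between 27.4 and 29.4 CPM in bigenic mice, against 23.3 to 27.7 CPM in controls (0.17 ± 0.08, SE; adjusted p = 0.119), and it shares exonic sequence with Yy2. The signs for Scap and Mbtps1 turned with the scaling. Stard4, which carries sterols between membranes and is a target of SREBP, was at 13.7, 16.01, 8.47 and 13.5 CPM in bigenic mice, against 19.7, 25.1, 23.1 and 25.4 CPM in controls. All bigenic values of Stard4 were below all control values, and it fell 1.81-fold (log2 fold change -0.85 ± 0.17, SE; adjusted p = 0.0019).

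Levels can be set side by side only per transcript length, for which the authors' FPKM (fragments scaled to transcript length and library size) were used. By mean over the 8 libraries Insig1 (55.4 FPKM), Ggps1 (53.5), Hmgcs1 (43.6), Sc5d (40.2) and Msmo1 (31.6) were the most abundant members, and Nsdhl (4.58), Dhcr7 (3.93) and Idi1 (1.72) the least. The order at the top depended on the group. In control tissue Ggps1 stood at 55.2 ± 2.91 FPKM, Hmgcs1 at 51.1 ± 8.42, Insig1 at 45.3 ± 3.52 and Sc5d at 41.1 ± 3.52 (SD, n = 4), so that neighbours in this order differed by less than the sum of their SDs. In bigenic tissue Insig1 led with 65.4 ± 12.7 FPKM, followed by Ggps1 with 51.9 ± 4.03 and Sc5d with 39.2 ± 4.33, and Hmgcs1 was at 36.1 ± 4.13 (SD, n = 4). Of the 2 SREBP genes Srebf1 was the more abundant in both groups, at 17.5 ± 1.87 FPKM against 6.68 ± 0.773 for Srebf2 in bigenic and 12.3 ± 1.68 against 7.45 ± 0.725 in control tissue (SD, n = 4).

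**Figure D5:**
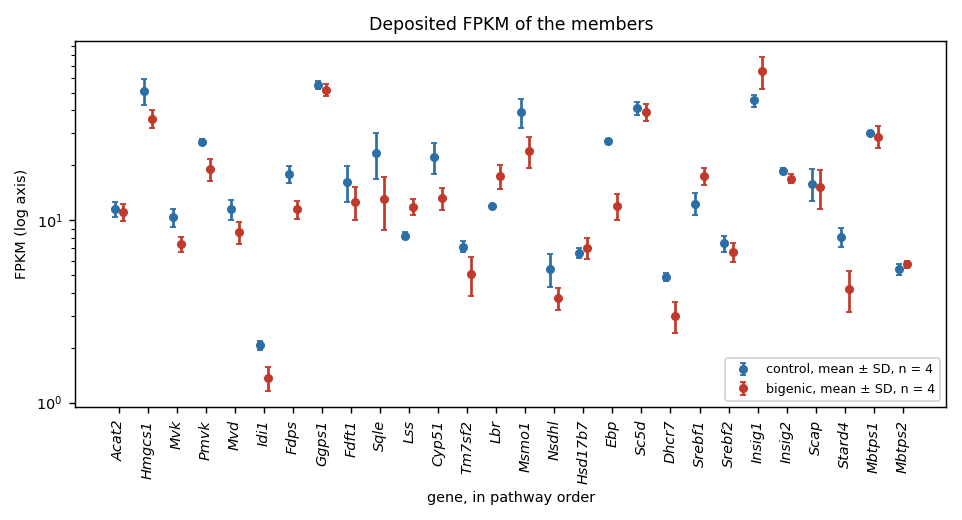
Authors' FPKM of each member in pathway order (log axis), mean ± SD over 4 libraries per group, control in blue and bigenic in red. Levels run from about 1.72 FPKM for Idi1 to 55.4 FPKM for Insig1 as means over the 8 libraries.

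Members did not vary alike within a group. Among the controls, library 4 had the highest value for 9 of the 13 members that fell and library 1 the lowest for 8. Among the bigenic libraries, number 3 had the highest value for 10 of the 28 members and the lowest for 14. The first 10 were Hmgcs1, Idi1, Ggps1, Fdft1, Cyp51, Msmo1, Hsd17b7, Sc5d, Lbr and Insig1, whose longest coding transcripts had a median GC content of 44.1%. The 14 lowest in bigenic library 3, among them Mvk, Pmvk, Mvd, Ebp, Dhcr7, Scap, Stard4 and both SREBP genes, had a median of 54.6%. The GC contents overlapped, from 40.1% to 51.8% in the 10 and from 40% to 59.6% in the 14. Both sets were picked by these same values, and no such split was made over all genes. Members that fell and members that rose had median GC contents of 49.3% and 50.2%, the latter also being the median of all genes tested. Their median transcript lengths were 2168 and 3904.5 bases, against 4244 bases for members that did not pass and 3151 bases for all genes tested. With an offset for transcript GC content and length, chosen after the data were seen, 13 members fell and 5 rose, and 12 and 4 of these were the ones called without it.

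Other genes under SREBP or around the sterol sensor were read from lists that take in genes outside the 28. Of 20 fatty acid and lipid genes that SREBP acts on, 6 rose and 4 fell, with a median log2 fold change of 0.0092. Of all genes tested 21.4% rose and 22.9% fell. Acsl3, which activates fatty acids, rose by 0.69 ± 0.12 (SE; adjusted p = 0.00109; 0.58 with Ttr as covariate, adjusted p = 0.0575), the acyltransferase Gpam by 0.46 and the phosphatidate phosphatase Lpin1 by 0.41, whereas the elongase Elovl5 fell by 0.47 ± 0.08 (SE; adjusted p = 0.000571). Fasn, fatty acid synthase, named after its value was seen, rose from 196 ± 20.5 to 281 ± 38.9 CPM (SD, n = 4; adjusted p = 0.00218). Without control libraries 2 and 3, 1 gene of this list fell, and 2 fell without bigenic library 1 or without control library 2.

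The isoprenoid branch leads to ubiquinone, dolichol and prenylated proteins. Of its 12 genes 0 rose in edgeR's test, against 21.4% of all genes tested, and 0 rose with DESeq2 or with limma on the FPKM. At an unadjusted p under 0.05, 0 were higher in edgeR's test and 1 with DESeq2. The edgeR fit without bigenic library 2 called 1 of the 12 higher, and 1 was also called higher once the GC and length offset was used. In edgeR's test 3 of the 12 fell (median -0.12), against 22.9% of all genes tested. These were Rabggta, a subunit of the transferase that prenylates Rab proteins (-0.48 ± 0.13, SE; adjusted p = 0.00996), Dhdds, of dolichol synthesis (-0.42), and Coq2, of ubiquinone synthesis (-0.29), and Fnta stood at -0.22 without passing. Without control libraries 2 and 3, edgeR called 0 of the 12, with 3 lower at an unadjusted p under 0.05. In that fit 1775 of 15525 genes tested fell. With library size alone 5 of the 12 fell, against 4373 of 15186 genes tested. Of 20 genes around sterol sensing and the degradation of its enzymes 7 rose and 1 fell (median 0.19; all genes tested, 21.4% and 22.9%). Ufd1l, a partner of the ATPase that extracts proteins from the endoplasmic reticulum, rose by 0.80 ± 0.09 (SE; adjusted p = 7.89e-05). Sec24d, of the vesicle coat that carries SCAP, rose by 0.42, a call lost without control libraries 2 and 3 (adjusted p = 0.0686). Soat1, which esterifies cholesterol for storage, fell by 0.49 ± 0.09 (SE; adjusted p = 0.0012). With library size alone 4 genes of this list rose and 4 fell, without control libraries 2 and 3, 3 rose, and 4 rose without bigenic library 3 or without control library 2.

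For cholesterol turnover and export 3 of 16 genes rose and 4 fell (median -0.04), against 21.4% and 22.9% of all genes tested. Abca1, the exporter that loads lipoproteins, had a mean of 191 ± 43.9 CPM in bigenic mice, against 91.3 ± 6.25 CPM in controls (SD, n = 4), and rose by 1.06 on the log2 scale (adjusted p = 0.000174), while the sterol receptors Nr1h2 and Nr1h3 fell by 0.85 and 0.80 and the lysosomal lipase Lipa by 0.66.

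Markers of the cells that could carry these transcripts were set beside the members. Granule and Purkinje cell markers were abundant in every library, with summed levels of 5053 to 6849 CPM and 12540 to 15870 CPM. The marker counts of the first fit, given next, stand beside 21.4% of all genes tested that rose and 22.9% that fell. Of the 8 granule cell markers 1 rose and 2 fell, and of the 8 Purkinje cell markers 1 rose. Of 10 astrocyte and Bergmann glia markers 5 rose and 2 fell, with a summed level of 9803 to 10830 CPM in bigenic and 8371 to 9026 CPM in control libraries. Of 10 oligodendrocyte markers 4 rose and 2 fell, with sums of 4863 to 6404 and 4432 to 5402 CPM. Of 8 microglia markers 4 fell and the rest did not pass, with sums of 129 to 157 and 170.2 to 204 CPM, and 1 of 8 endothelial markers fell. Without control libraries 2 and 3, 1619 of 15525 genes tested rose and 1775 fell. In that fit 2 astrocyte markers rose and 0 fell, and 1 oligodendrocyte marker rose and 1 fell. There 3 microglia markers fell, and 1 granule cell marker rose and 0 fell. With library size alone 4 granule cell markers fell, against 4373 of 15186 genes tested. With Ttr as covariate 2 oligodendrocyte markers fell and 0 rose, against 1666 and 1272 of 15186 genes tested. The median log2 fold change of the oligodendrocyte list was 0.03 and turned to -0.06 with library size alone. The part of cell composition in the changes of the 28 genes was not tested.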

How the data were processed

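Total RNA of whole cerebellum was sequenced from 4 bigenic and 4 control mice. The labels disagree on the kit (a Nugen or a stranded TruSeq library). Per the submitters' processing notes, reads went through STAR and HTSeq on mm10; versions, annotation and strand setting are not given in the sources used here. The authors deposited read counts per gene, not normalised, and FPKM. The deposited FPKM are the counts over each library's total and over a length that is the same in all libraries (checked on 12447 genes). Library totals ran from 35208460 to 38293012 counts.

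The count test was that of edgeR 4.0.16 (R 4.3.3): filterByExpr on group, TMM, robust quasi-likelihood F test, Benjamini-Hochberg over 15186 genes, threshold 0.05. CPM use TMM-scaled totals; SE is the log2 fold change over the root of F. The test was tested on simulated data with 200 of 15054 genes changed. It recovered 67% of 1.5-fold and 87% of 2-fold changes, and 6.67% of its calls were false. Far fewer genes were changed there than the 44.3% called in these data, so these shares may differ here. Alternatives used DESeq2 1.42.0, limma 3.58.1 on log2(FPKM + 1) and log2(FPKM + 0.1), other scalings and filters, a replicate block, Ttr as covariate, a GC and length offset, and left-out libraries. The members and lists were chosen with earlier results of these data known. All members are named; of each list, the 4 genes with the smallest p. Some genes outside the members that this naming rule gives are not reported here. Positions and exon overlaps are from GENCODE M21 (GRCm38, the build of mm10), promoters from RefSeq. P-values measure the spread between mice of 1 series, and counting strand being unknown, antisense overlaps may share reads.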

Additional observations from a re-analysis of the deposited data

Results flagged for a closer look

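Of 56 groups of 4 values examined (28 genes in 2 groups), 1 held a value far from the other 3. Sqle was at 54.88 CPM in bigenic library 2, and the next bigenic value was 32.29 CPM, a gap that makes up 0.917 of the range of the group (critical value 0.829 for 4 values). Chance alone flags about 1 in 20 such groups.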

How the results depend on the processing

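All 17 called members kept their direction in every alternative fit run. Without control libraries 2 and 3, 3394 genes were called (1619 higher, 1775 lower), 8 members fell, 1 fatty acid gene and 0 isoprenoid genes fell, and 3 sterol regulators rose. With Ttr as covariate 2938 genes were called (1272 higher, 1666 lower), 8 members fell, 1 fatty acid gene and 1 isoprenoid gene fell, and 3 sterol regulators rose. With library size alone, with upper-quartile factors and with limma on log2(FPKM + 1) or log2(FPKM + 0.1), 5 isoprenoid genes fell and 4 sterol regulators rose, while 4, 3, 4 and 4 sterol regulators fell; 2 fell with DESeq2, with no filter, with the filter of 10 counts in 4 libraries and with the replicate block. With the GC and length offset 1 isoprenoid gene rose. Those scalings also moved the split of all calls from 3249 higher and 3485 lower to 2423 and 4373 (library size), 2641 and 4105 (upper quartile), 2370 and 4353 (FPKM + 1) and 2377 and 4373 (FPKM + 0.1), with 4 members higher and 14 lower in each. The median log2 fold change over all genes was -0.0893, -0.0624, -0.0602 and -0.0871 with those scalings in the same order, against -0.0041 with TMM. The TMM factors lay between 0.9496 and 0.9828 in bigenic and between 1.0137 and 1.049 in control libraries. The cause of this difference in the factors was not tested.

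Leaving out 1 library in turn gave 10 to 13 members lower and 4 to 5 higher, 2 to 4 fatty acid genes lower, 0 to 1 isoprenoid genes higher and 3 to 4 lower, 4 to 10 sterol regulators higher and 1 to 2 lower, and 5281 to 7411 genes called (2544 to 3588 higher, 2737 to 3823 lower).

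6 members that did not pass the test changed sign. Acat2 was at -0.0517 with library size, -0.0258 with upper quartile, -0.048 and -0.0519 with the FPKM fits, -0.0583 with Ttr and -0.022 to 0.0907 with 1 library left out. Ggps1 was at 0.0065 with DESeq2, 0.0222 without control libraries 2 and 3, 0.0474 with the GC offset and -0.0649 to 0.043 with 1 library left out. Sc5d was at -0.067, -0.0401, -0.0676 and -0.0691 with those scalings, -5e-04 with no filter, -0.024 with Ttr and -0.0389 to 0.0831 with 1 library left out. Insig2 was at 0.0037 with Ttr and 0.0139 with the GC offset. Scap was at -0.0591, -0.0329, -0.0644 and -0.0689 with those scalings, -0.0566 without control libraries 2 and 3, -0.0817 with the GC offset and -0.1112 to 0.1454 with 1 library left out. Mbtps1 was at -0.0663, -0.0414, -0.0737 and -0.0763, -0.0022 with no filter, -0.0012 with the GC offset and -0.0517 to 0.0854 with 1 library left out.

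The replicate numbers were not taken to pair the mice, since the deviations of same-numbered libraries correlated at 0.329, 0.024, 0.166 and 0.063, not all above 0.1. Bigenic libraries 1, 3 and 4 correlated best with the control of their own number, and bigenic library 2 with control library 1 (0.088), a hint from the data and not from the design. With the number as a replicate block 14 members fell, 12 of them among the 13, and 4 rose. Fdft1 (-0.27, edgeR's adjusted p = 0.0484) and Tm7sf2 (-0.43, adjusted p = 0.0273) were called in addition, Sqle was at -0.765 (edgeR's adjusted p = 0.0922), and 3648 genes were higher and 3795 lower.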
